A study of Mus musculus with 7 samples.

Results

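Imprinted genes are transcribed from only the maternally or only the paternally inherited chromosome, and they were examined here as a set in the mouse outflow tract (OFT). The members were chosen by name from what is known of imprinting in the mouse. Of 42 names, 38 matched a gene in the deposited table of 14732 genes. *Slc22a18*, *Rtl1* and *Ascl2* were not analysed here, and the remaining name, Dcn-none, matched no gene symbol. By the allele that is known to be active, the 38 genes comprised 20 paternally expressed genes, 16 maternally expressed genes and 2, *Gnas* and *H13*, whose active allele differs between transcripts. Imprinting of 7 of the 38 (*Ppp1r9a*, *Copg2*, *Ube3a*, *Trappc9*, *Tspan32*, *Cd81* and *Asb4*) is known to be limited to some tissues. The reads were not assigned to a parental allele, so each value is the sum of both.

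The active allele of an imprinted gene is set by DNA methylation laid down in the egg or the sperm and kept through development at imprinting control regions. Many imprinted genes lie in clusters, in which a long non-coding RNA from one parental chromosome is made opposite protein-coding genes from the other. Paternally expressed genes such as *Igf2* tend to promote embryonic growth, and maternally expressed genes such as *Igf2r*, *Grb10* and *Cdkn1c* tend to restrain it. Many imprinted genes are abundant in embryonic mesoderm and fall in expression after birth.

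The data are poly(A) RNA-seq of OFTs dissected from embryos at embryonic day (E) 11.5, in 3 pools of WT embryos (replicates 3, 4 and 5) and 4 pools heterozygous for *Gata6 STOP* (replicates 1, 3, 4 and 5). *Gata6* encodes a zinc-finger transcription factor of the second heart field, its derivatives and the neural crest. The STOP allele carries a frameshift in exon 2, made by CRISPR-Cas9 in C57BL/6 embryos, and descends from a single founder backcrossed to C57BL/6. The study's resource table lists *Mib1* mutant alleles as the background in which the STOP allele was made, and whether these pools carry them is not given in the sources used here. By the study's methods each pool combined 4 pairs of OFTs, and which litters or sexes entered a pool is not given in the sources used here. Values are CPM, the read counts of each gene scaled by the authors to a common library size. The pools hold 17783655 to 34467710 reads on the listed genes. Below, values per pool follow the order of replicates 3, 4 and 5 for WT and 1, 3, 4 and 5 for *Gata6 STOP/+*, and means are given with s.d. (n=3 for WT, n=4 for *Gata6 STOP/+*) in the same order of groups. Log2 fold changes are of *Gata6 STOP/+* over WT with their standard error (s.e.), and *P*-values are from limma, adjusted over all genes, where no other tool is named.

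*Gata6* served as the check of the labels. It measured 315, 257 and 286 CPM in the WT pools and 268, 203, 219 and 217 CPM in the *Gata6 STOP/+* pools. The 3 WT values lie above those of *Gata6 STOP/+* replicates 3, 4 and 5, but *Gata6 STOP/+* replicate 1 exceeds WT replicate 4, so the groups overlap (means 286±28.9 and 227±28.7 CPM, log2 fold change −0.34±0.0987 s.e., adjusted *P*=0.389). Without *Gata6 STOP/+* replicate 1 the log2 fold change was −0.42 (adjusted *P*=0.170). The mean in *Gata6 STOP/+* was 79.2% of that in WT. The study itself reported *Gata6* as lower in *Gata6 STOP/+* by RNA-seq, with an edgeR adjusted *P* under 0.05, and by quantitative PCR. The tissue label was checked against marker genes. All 10 cardiomyocyte markers were listed, led in CPM by *Myh7*, a myosin heavy chain, and their sum was 23908, 23142 and 21351 CPM in the WT pools and 17477, 24654, 22271 and 21715 CPM in the *Gata6 STOP/+* pools. All 6 smooth muscle, 8 endothelial and endocardial, and 10 cushion and pharyngeal mesenchyme markers were listed as well. Summed mesenchyme markers, led by the collagen gene *Col3a1*, came to 6001, 5382 and 5837 CPM in the WT pools and 6582, 4318, 5068 and 5616 CPM in the *Gata6 STOP/+* pools. *Gata6 STOP/+* replicate 1 had the lowest cardiomyocyte sum and the highest mesenchyme sum of the 7 pools.

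Among imprinted genes, 2 WT pools stood apart. WT replicate 3 was high for *Dlk1* and low for *Meg3*, *Rian* and *Mirg*, 4 genes of a single domain, and WT replicate 4 was high for *Mest*. In *Gata6 STOP/+* replicate 1, *Asb4*, *Peg10* and *Nnat* were at their highest, as were *Zim1*, *Peg3*, *Zdbf2*, *Ube3a*, *Impact* and *Phlda2*. The main results that rest on these pools are given with and without them. In pooled whole tissue, fewer cells of a type and less RNA per cell cannot be told apart.

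Imprinted genes were abundant in the OFT. The 38 genes took 3.50%±0.113 of all reads in WT (s.d., n=3) and 3.53%±0.145 in *Gata6 STOP/+* (s.d., n=4), and *H19* and *Igf2* held 58.7 to 64.8% of these in the 7 pools. *H19* drew more reads than any other listed gene in each of the 7 pools. Maternally expressed members summed to 20636±397 CPM in WT and 21276±682 in *Gata6 STOP/+*. Paternally expressed members summed to 12519±1059 and 12250.2±754 CPM. In both cases the means differed by less than the larger of their s.d.

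To compare genes, CPM was divided by exonic length in kilobases, and levels are means over WT pools with s.d. (n=3). *H19*, a maternally expressed long non-coding RNA, stood first at 5315±313 CPM per kilobase, rank 3 of the 14723 genes with an annotated length. *Igf2*, the paternally expressed growth factor of the same locus, followed at 1489±155 and rank 14. *Cdkn1c*, which encodes the cell cycle inhibitor p57, came next at 402±70.4 and rank 78. These 3 were the members among the 100 highest genes. Then came *Mest*, an α/β-hydrolase gene of mesoderm, at 322±171, *Igf2r*, the receptor that clears IGF2, at 279±28.7, and *Grb10*, an adaptor that dampens insulin and IGF1 receptor signalling, at 218±3.59. Levels of *Cdkn1c* and *Mest*, and of *Mest* and *Igf2r*, overlapped between WT pools, whereas *H19*, *Igf2* and *Cdkn1c* were separated in every WT pool. This order holds for the union of annotated exons as length. With the longest transcript as length, *H19* and *Igf2* still led. *Mest* (477 CPM per kilobase) and *Gnas* (444) then passed *Cdkn1c* (431, rank 5 among members), and *Grb10* (391) passed *Igf2r* (292).

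The next 6 were *Gnas* (stimulatory G protein α-subunit) at 157±10.5, *Cd81* (a tetraspanin) at 123±6.56, *Nnat* (neuronatin) at 85.3±7.35, *Peg3* (a zinc-finger protein) at 71.5±1.07, *Plagl1* (a zinc-finger transcription factor) at 59.1±14.6 and *Peg10* (a gene derived from a retrotransposon) at 58.3±2.21 CPM per kilobase. Of these 12, 5 are maternally and 6 paternally expressed. *Tspan32*, *Kcnq1ot1*, *Magel2* and *Phlda2* were lowest, at 0.561, 0.722, 0.813 and 1.41 CPM per kilobase. The annotated exonic length of *Kcnq1ot1* is 93092 bases, so its level per kilobase is an average over a very long transcript. Along the whole order, WT pools overlapped in 22 of 37 pairs of neighbouring genes.

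**Figure D1:**
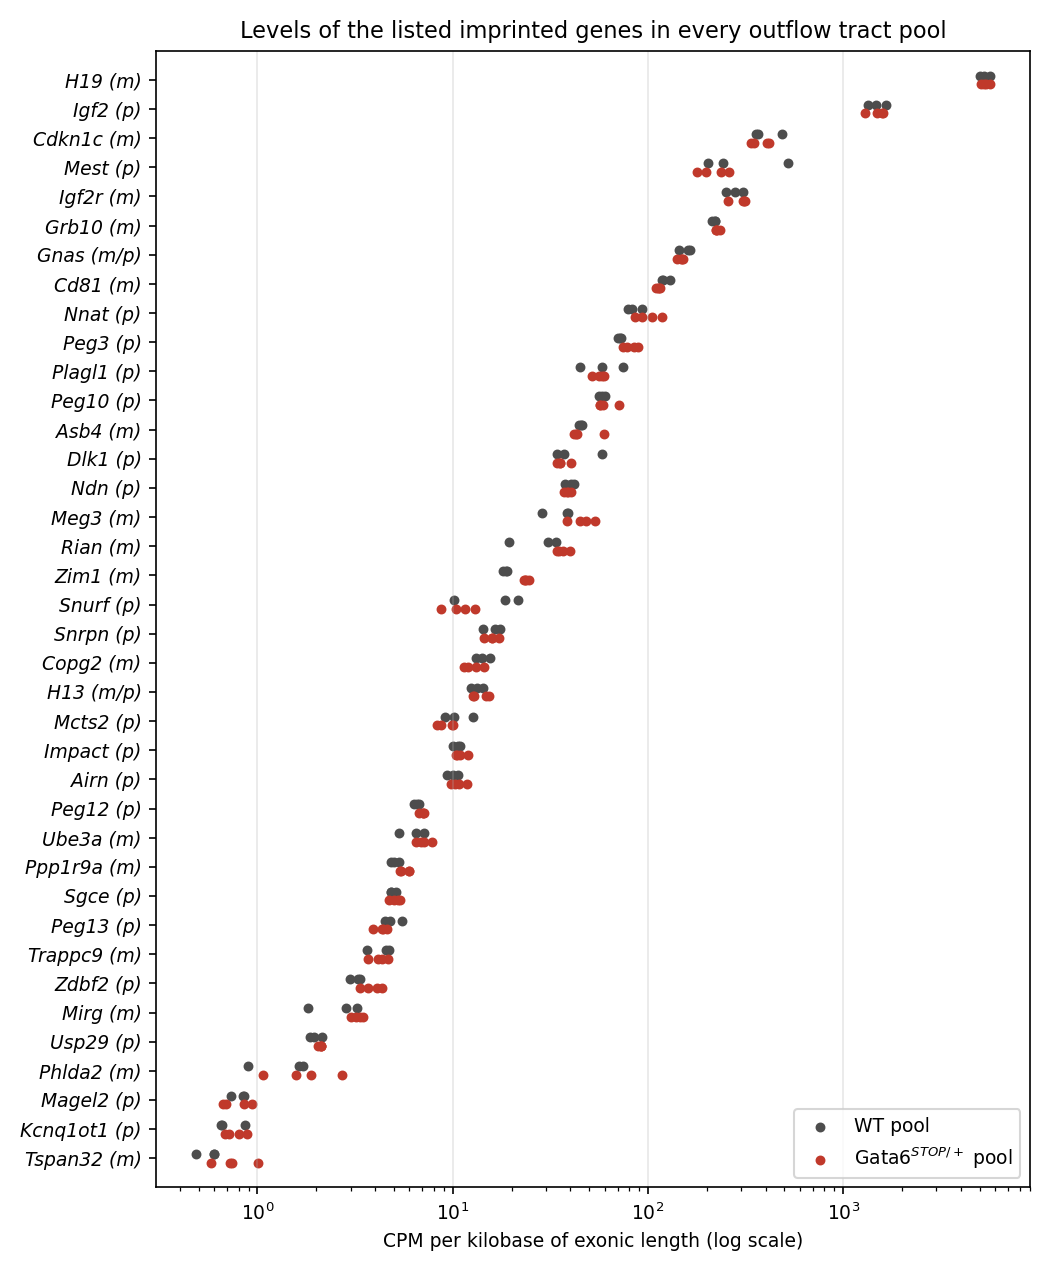
CPM per kilobase of exonic length (log axis) of the 38 listed imprinted genes in each of the 3 WT pools (grey) and 4 *Gata6 STOP/+* pools (red), ordered by the WT mean, with the known active allele in brackets (m, maternal; p, paternal; m/p, depends on the transcript). *H19* and *Igf2* lie above all other members in all 7 pools, and single pools stand apart for *Mest*, *Dlk1*, *Rian* and *Asb4*.

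Between genotypes, differences among imprinted genes were small, and *Zim1* stood out. With limma, 0 of 38 passed an adjusted *P* of 0.05, as did 0% of all 14732 genes. At an unadjusted *P* under 0.05, 7 members were higher in *Gata6 STOP/+* and 0 lower, beside 4.17% higher and 3.88% lower of all genes. These were *Zim1*, *Meg3*, *Zdbf2*, *Rian*, *Ppp1r9a*, *Peg3* and *Nnat*. Without WT replicate 3, *Zim1* alone was higher and *Mest*, *Snurf* and *Copg2* were lower at this level. Without *Gata6 STOP/+* replicate 1, 4 were higher (*Meg3*, *Rian*, *Zim1* and *Zdbf2*) and *Peg13* was lower. Leaving out any other pool gave 6 or 7 higher and 0 or 1 lower. In 6 members every *Gata6 STOP/+* pool exceeded every WT pool (*Zim1*, *Rian*, *Zdbf2*, *Ppp1r9a*, *Peg3* and *Grb10*), and in 1, *Cd81*, every *Gata6 STOP/+* pool was below. Over all genes, 4.31% were higher and 4.16% lower without overlap. Count tests on reads recovered from the CPM called a single member, *Zim1*, with edgeR's likelihood ratio test among 0.713% of all genes and with DESeq2 among 0.597%.

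The median log2 fold change of the 38 members was 0.053 (0.027 to 0.075 when a pool was left out), beside −0.00073 over all genes. It was 0.13 for the 16 maternally expressed members, of which 12 were higher in *Gata6 STOP/+*, and 0.022 for the 20 paternally expressed members, of which 11 were higher. Among all genes 49.8% were higher. The 16 include all 7 members whose imprinting is limited to some tissues. They also include *Meg3*, *Rian* and *Mirg*, which lie in a single domain and were all lowest in WT replicate 3. The maternal median was 0.079 without WT replicate 3, 0.056 without WT replicate 5 and 0.075 without *Gata6 STOP/+* replicate 1. Without WT replicate 5 the paternal median was 0.000092, and without *Gata6 STOP/+* replicate 1 it was −0.0053. The median s.d. between WT pools on the log2 scale was 0.121 for members and 0.117 for all genes.

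**Figure D2:**
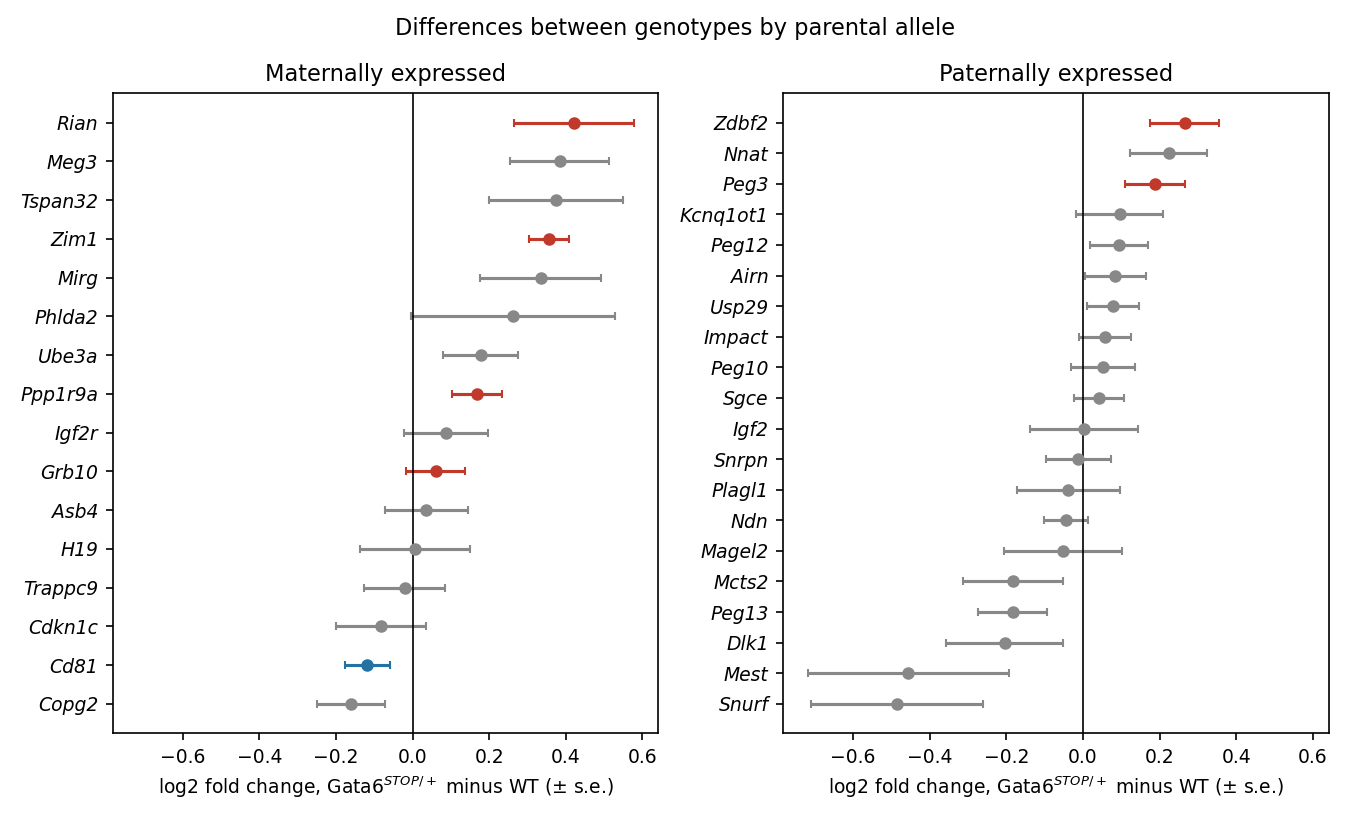
Log2 fold change between *Gata6 STOP/+* and WT (points, ± s.e. from limma) of the 16 maternally expressed genes (left) and the 20 paternally expressed genes (right). Red points mark genes whose *Gata6 STOP/+* pools all lie above all WT pools and the blue point (*Cd81*) the reverse, and maternally expressed genes reach from −0.16 to 0.42.

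The *Peg3* domain on chromosome 7 held the member with the lowest *P*. *Zim1*, a maternally expressed zinc-finger gene (chr7:6671269-6696450, minus strand, GRCm38), measured 151, 147 and 153 CPM in the WT pools and 199, 190.1, 187 and 193 CPM in the *Gata6 STOP/+* pools. All 4 *Gata6 STOP/+* pools lay above all 3 WT pools, and the pools within each group differed little. The *Gata6 STOP/+* mean was 128% of the WT mean (means 150.1±3.18 and 192±5.19 CPM, log2 fold change 0.36±0.0524 s.e., adjusted *P*=0.0970). By its *P*, *Zim1* ranked 5 of all 14732 genes. Its adjusted *P* was 0.000267 with edgeR's likelihood ratio test, 1.19e-06 with DESeq2 and 0.171 with edgeR's quasi-likelihood test, and 1.19e-06 to 0.320 over all alternatives. Leaving out any single pool kept its log2 fold change between 0.34 and 0.37.

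*Peg3*, the paternally expressed neighbour of *Zim1* (chr7:6703892-6730431, minus strand), encodes a zinc-finger protein expressed in embryonic mesoderm and brain. It measured 936, 957 and 964 CPM in the WT pools and 1185, 994, 1043 and 1129.9 CPM in the *Gata6 STOP/+* pools. Each *Gata6 STOP/+* pool again exceeded each WT pool, with *Gata6 STOP/+* replicate 1 highest (means 952±14.3 and 1088±85.7 CPM, log2 fold change 0.19±0.0780 s.e., adjusted *P*=0.577). Without that pool its log2 fold change was 0.15 (adjusted *P*=0.697). *Usp29*, paternally expressed and divergent from *Peg3*, encodes a ubiquitin-specific protease and measured 38.8, 33.6 and 35.3 CPM in the WT pools and 38.2, 36.8, 38.1 and 38.4 CPM in the *Gata6 STOP/+* pools. Its highest value was in WT replicate 3 and the groups overlap (means 35.9±2.69 and 37.9±0.696 CPM, log2 fold change 0.079±0.0685 s.e., adjusted *P*=0.809). Of the 5 other listed genes within 250000 bases of the 3 members, chosen after their values were seen, the 3 zinc-finger genes *Zfp954*, *Zfp418* and *Zfp772* and the olfactory receptor gene *Olfr1336* had log2 fold changes of −0.017, −0.070, −0.042 and 0.011, and *Zfp773* had 0.23±0.170 without overlap of the groups, at 1.32 CPM in WT. All but that of *Zfp773* changed sign when a single pool was left out. *Zfp418* and *Olfr1336* also had few reads, at 2.44 and 1.47 CPM in WT.

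As *Zim1* and *Peg3* were both higher in every *Gata6 STOP/+* pool, the sequences upstream of their starts are shown, from RefSeq (GRCm38.p6), 5′ to 3′ on the gene's strand. RefSeq held promoters for 31 of the 38 members. The 250 bases before the start held 14 CG dinucleotides, the sites of DNA methylation, for *Zim1* and 8 for *Peg3*, beside a median of 6 over 32851 promoters, 92.1% of which held at least 1. The median over the promoters of members was 10, so *Peg3* lay below it and *Zim1* above. The motif GATA, searched on both strands (GATA or TATC), was in neither window, and in 53.6% of all promoters and 38.3% of the 47 promoters of members. *Rian*, *Grb10*, *Zdbf2* and *Ppp1r9a* were also higher in every *Gata6 STOP/+* pool. The *Rian* window held 1 such motif, as did the *Grb10* window at chr11:12027972-12028221. The other *Grb10* window and those of *Zdbf2* and *Ppp1r9a* held 0. Only bases outside annotated exons are printed, at chr7:6696451-6696682 and chr7:6730432-6730577, both on the minus strand, and capitals mark each CG.
Zim1: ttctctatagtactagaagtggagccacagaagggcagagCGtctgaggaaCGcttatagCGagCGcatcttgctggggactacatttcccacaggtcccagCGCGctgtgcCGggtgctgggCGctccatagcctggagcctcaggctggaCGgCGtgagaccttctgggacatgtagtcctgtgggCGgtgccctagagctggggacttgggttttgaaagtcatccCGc
Peg3: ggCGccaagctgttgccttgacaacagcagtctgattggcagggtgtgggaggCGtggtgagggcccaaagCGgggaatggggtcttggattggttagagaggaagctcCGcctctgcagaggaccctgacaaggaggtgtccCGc

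In the *Dlk1-Meg3* domain on chromosome 12, the maternally expressed non-coding RNAs had higher values in *Gata6 STOP/+* and the paternally expressed gene lower ones, the first in part and the second wholly through WT replicate 3. *Meg3*, a long non-coding RNA (chr12:109541001-109571726, plus strand), measured 519, 693 and 709 CPM in the WT pools and 808, 872, 963 and 693 CPM in the *Gata6 STOP/+* pools. WT replicate 3 was lowest, and *Gata6 STOP/+* replicate 5 was level with WT replicate 4 and below WT replicate 5, so the groups overlap (means 640.3±105 and 834±114 CPM, log2 fold change 0.38±0.129 s.e., adjusted *P*=0.466). *Rian*, the host of small nucleolar RNAs and microRNAs, measured 353, 558 and 617 CPM in the WT pools and 639.7, 727, 666 and 624 CPM in the *Gata6 STOP/+* pools. The *Gata6 STOP/+* pools all lay above the WT pools, but *Gata6 STOP/+* replicate 5 exceeded WT replicate 5 only narrowly (means 509±138 and 664±45.2 CPM, log2 fold change 0.42±0.157 s.e., adjusted *P*=0.523). *Mirg*, a further microRNA host, measured 13.3, 20.7 and 23.6 CPM in the WT pools and 24.4, 23.2, 25.3 and 21.98 CPM in the *Gata6 STOP/+* pools, with WT replicate 3 lowest and WT replicate 5 within the *Gata6 STOP/+* range (means 19.2±5.34 and 23.7±1.45 CPM, log2 fold change 0.33±0.159 s.e., adjusted *P*=0.645).

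*Dlk1*, the paternally expressed gene of the domain, encodes a Notch-like membrane protein that holds back differentiation. It measured 330.2, 193 and 209 CPM in the WT pools and 229, 200.3, 201 and 194 CPM in the *Gata6 STOP/+* pools. WT replicate 3 stood far above the other 6 pools, which lay close together (means 244±74.9 and 206±15.6 CPM, log2 fold change −0.20±0.152 s.e., adjusted *P*=0.783). The same pool was lowest for the 3 RNAs of the other allele. Without WT replicate 3 the log2 fold changes were 0.24 (adjusted *P*=0.819) for *Meg3*, 0.18 (adjusted *P*=0.799) for *Rian*, 0.10 (adjusted *P*=0.962) for *Mirg* and 0.034 (adjusted *P*=0.981) for *Dlk1*. *Dlk1* thus changed sign, whereas without WT replicate 4 it had −0.35 (adjusted *P*=0.537), and the differences of the 3 RNAs rested in part on that pool. The log2 ratio of *Meg3* to *Dlk1* was 0.65, 1.84 and 1.76 in the WT pools and 1.82, 2.12, 2.26 and 1.83 in the *Gata6 STOP/+* pools. *Gata6 STOP/+* replicates 3 and 4 exceeded every WT pool, replicates 1 and 5 lay just under WT replicate 4, and WT replicate 3 was far below the rest (difference 0.59, exact two-sided permutation *P*=0.171, 0.343 after adjustment over the 4 pairs). Without WT replicate 3 the difference was 0.21.

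*Rian* and *Mirg* carry microRNA hairpins, which these poly(A) libraries did not measure in mature form. RefSeq (GRCm38.p6) places 3 hairpins within *Rian* and 14 within *Mirg*, on the same strand, with 6 and 26 mature sequences. The 6 of *Rian* have 6 different seeds. In *Mirg*, miR-453 and miR-496a-5p share a seed, and the remaining mature sequences each have their own. All 6 of *Rian* and the 2 of *Mirg* that share a seed are printed, with the seed (bases 2 to 8) in capitals.
miR-341-5p: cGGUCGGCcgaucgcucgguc
miR-341-3p: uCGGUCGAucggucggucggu
miR-1188-5p: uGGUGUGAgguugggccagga
miR-1188-3p: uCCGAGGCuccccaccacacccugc
miR-370-5p: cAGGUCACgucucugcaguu
miR-370-3p: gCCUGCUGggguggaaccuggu
miR-453: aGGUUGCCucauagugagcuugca
miR-496a-5p: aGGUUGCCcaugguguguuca

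**Figure D3:**
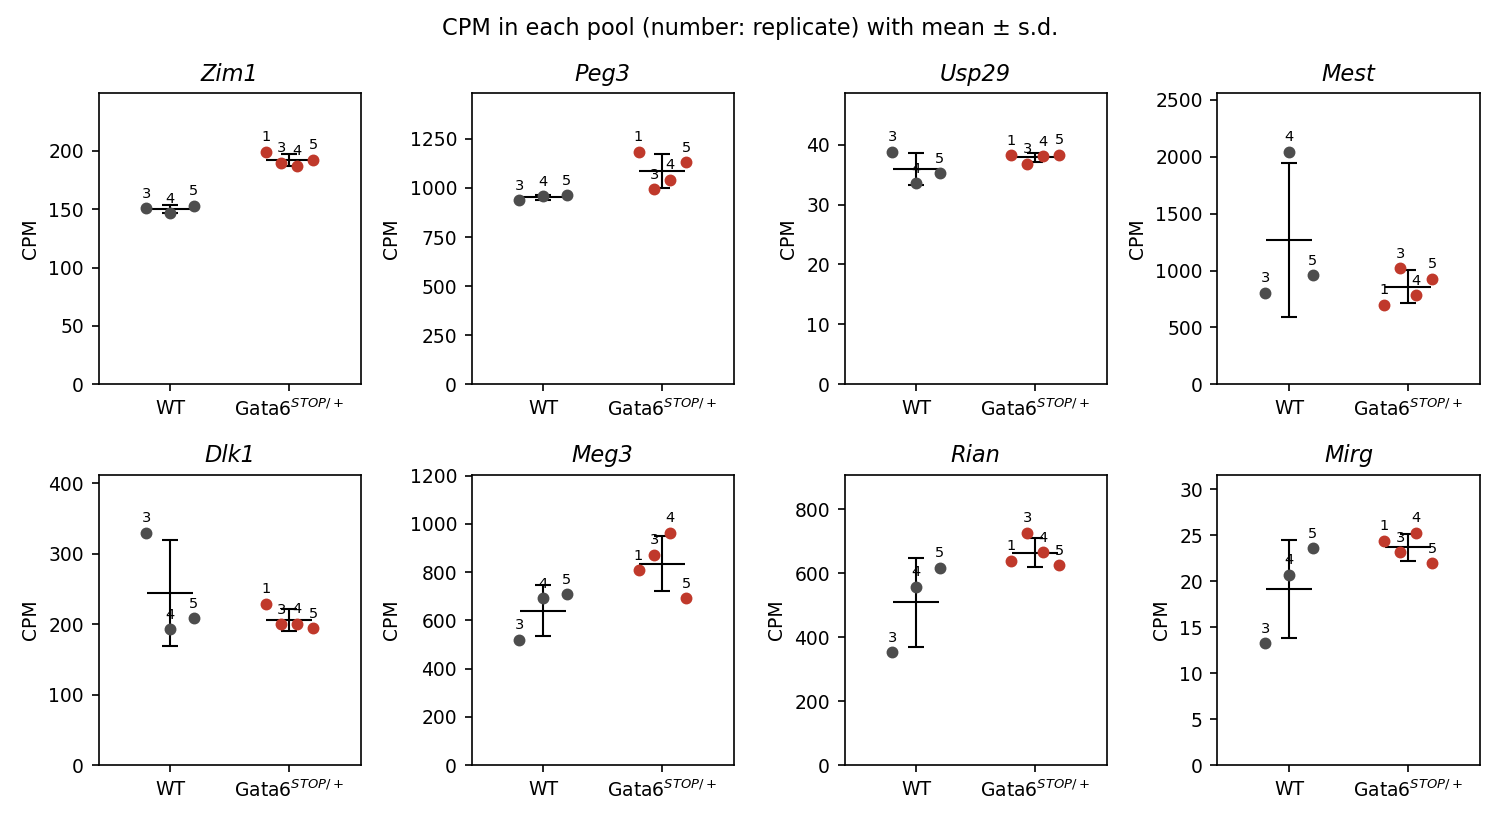
CPM (axes from 0) of 8 imprinted genes in each WT pool (grey) and *Gata6 STOP/+* pool (red), numbered by replicate, with mean ± s.d. bars. *Zim1* and *Peg3* separate the groups, WT replicate 4 stands apart for *Mest*, and WT replicate 3 is highest for *Dlk1* and lowest for *Meg3*, *Rian* and *Mirg*.

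In the most abundant pair, values of the genotypes overlapped. *H19*, from which miR-675 is processed, measured 13896, 12369 and 12958 CPM in the WT pools and 13833, 12539.9, 13189 and 12944 CPM in the *Gata6 STOP/+* pools. All *Gata6 STOP/+* pools lay within the range of the WT pools (means 13074±770.5 and 13126±542 CPM, log2 fold change 0.0065±0.144 s.e., adjusted *P*=0.993). *Igf2* measured 9436, 8465 and 7659.7 CPM in the WT pools and 9126, 7425, 9012 and 8563 CPM in the *Gata6 STOP/+* pools, with the highest value in WT replicate 3 and the lowest in *Gata6 STOP/+* replicate 3 (means 8520.2±889.7 and 8532±777 CPM, log2 fold change 0.0024±0.141 s.e., adjusted *P*=0.998). The 95% confidence interval of the log2 fold change ran from −0.31 to 0.32 for *H19* and from −0.31 to 0.31 for *Igf2*. By this fit, differences within these bounds remain possible. The s.e. is moderated by limma toward a trend over all genes. Between pools the s.d. on the log2 scale was 0.085 in WT and 0.059 in *Gata6 STOP/+* for *H19*. For *Igf2* it was 0.15 and 0.14. The log2 ratio of *H19* to *Igf2* was 0.56, 0.55 and 0.76 in the WT pools and 0.60, 0.76, 0.55 and 0.60 in the *Gata6 STOP/+* pools and overlapped between groups (difference 0.0040, exact two-sided permutation *P*=0.857, 0.971 after adjustment over the 4 pairs). The *Igf2* exons overlap on the same strand with *Gm49394*, an annotated gene that shares 3596 exonic bases with it, and RSEM divides reads that fit both by an estimate. *Gm49394* had 13.7, 7.45 and 9.46 CPM in the WT pools and 4.60, 4.56, 4.72 and 5.90 CPM in the *Gata6 STOP/+* pools. Its *Gata6 STOP/+* pools were all below its WT pools (means 10.2±3.17 and 4.95±0.641 CPM, log2 fold change −0.94±0.183 s.e., adjusted *P*=0.186), and its adjusted *P* was 0.00139 with edgeR's likelihood ratio test, 0.00103 with DESeq2 and 0.00103 to 0.549 over all alternatives. The 2 mature sequences of miR-675 are shown with the seed in capitals.
miR-675-5p: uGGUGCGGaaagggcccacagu
miR-675-3p: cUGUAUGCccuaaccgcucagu

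Genes that act on IGF2 and its receptors had small differences. *Igf2r*, maternally expressed, encodes the receptor that carries IGF2 to lysosomes and measured 2604, 2862 and 2328 CPM in the WT pools and 2878, 2393, 2851 and 2909 CPM in the *Gata6 STOP/+* pools. WT replicate 5 and *Gata6 STOP/+* replicate 3 were lowest, and the groups overlap (means 2598±267 and 2758±244 CPM, log2 fold change 0.087±0.109 s.e., adjusted *P*=0.876, 0.0099 to 0.16 when a pool was left out). *Airn*, the paternally expressed non-coding RNA that silences *Igf2r* in cis, measured 38.4, 36.3 and 33.6 CPM in the WT pools and 35.3, 38.5, 42.5 and 37.0 CPM in the *Gata6 STOP/+* pools, also with overlap (means 36.1±2.39 and 38.3±3.09 CPM, log2 fold change 0.085±0.0801 s.e., adjusted *P*=0.826). Their log2 ratio was 6.07, 6.28 and 6.09 in the WT pools and 6.33, 5.94, 6.05 and 6.28 in the *Gata6 STOP/+* pools and overlapped (difference 0.0017, exact two-sided permutation *P*=0.971, 0.971 after adjustment over the 4 pairs). *Grb10* measured 1996, 1941 and 1999 CPM in the WT pools and 2035, 2025, 2055 and 2137 CPM in the *Gata6 STOP/+* pools. Every *Gata6 STOP/+* pool was above every WT pool, by a small margin (means 1979±32.7 and 2063±50.8 CPM, log2 fold change 0.060±0.0767 s.e., adjusted *P*=0.879). Of 8 further genes of IGF2 signalling, 0 passed the adjusted threshold with limma, with edgeR or with DESeq2, and 0 had an unadjusted limma *P* under 0.05. Their log2 fold changes ran from −0.032 (*Irs2*, an insulin receptor substrate) to 0.12 (*Insr*, the insulin receptor). The type 1 receptor *Igf1r* had 0.052 and the RNA-binding protein genes *Igf2bp1*, *Igf2bp2* and *Igf2bp3* had 0.025, 0.054 and 0.027.

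The *Kcnq1ot1* domain on chromosome 7 gave the pair ratio with the clearest separation. *Cdkn1c* measured 745, 985 and 729 CPM in the WT pools and 689, 852, 832 and 709 CPM in the *Gata6 STOP/+* pools. WT replicate 4 was highest and the groups overlap (means 820.0±144 and 770.4±83.4 CPM, log2 fold change −0.082±0.118 s.e., adjusted *P*=0.892), and without that pool the log2 fold change was 0.057 (adjusted *P*=0.897). *Kcnq1ot1*, the paternally expressed non-coding RNA that silences *Cdkn1c* in cis, measured 61.1, 79.9 and 60.7 CPM in the WT pools and 63.3, 82.3, 74.6 and 66.4 CPM in the *Gata6 STOP/+* pools and overlapped too (means 67.2±11 and 71.7±8.55 CPM, log2 fold change 0.10±0.113 s.e., adjusted *P*=0.865), and the log2 fold change was 0.027 to 0.23 when a pool was left out. Both genes were high in WT replicate 4 and *Gata6 STOP/+* replicate 3, so their log2 ratio varied less than either gene. It was 3.60, 3.62 and 3.58 in the WT pools and 3.43, 3.36, 3.47 and 3.41 in the *Gata6 STOP/+* pools. Every *Gata6 STOP/+* pool lay below every WT pool (difference −0.18, exact two-sided permutation *P*=0.0571, 0.229 after adjustment over the 4 pairs). The 35 ways to part the pools allow no two-sided *P* under 0.0571. *Gm44732*, annotated antisense to *Cdkn1c* over 625 exonic bases, had 23.3, 24.4 and 27.0 CPM in the WT pools and 13.8, 18.7, 21.2 and 14.3 CPM in the *Gata6 STOP/+* pools. Its groups did not overlap (means 24.9±1.92 and 17.0±3.55 CPM, log2 fold change −0.56±0.141 s.e., adjusted *P*=0.294), and its adjusted *P* was 0.0494 with DESeq2 and 0.0494 to 0.640 over all alternatives. The libraries were made with a directional kit, and whether reads were then counted by strand is not given in the sources used here.

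Other members of that domain were less abundant, or imprinted in some tissues only. *Cd81* measured 341, 343 and 375 CPM in the WT pools and 318, 325, 331 and 327 CPM in the *Gata6 STOP/+* pools. All *Gata6 STOP/+* pools were below all WT pools, and WT replicate 5 was highest (means 353±18.9 and 325±5.48 CPM, log2 fold change −0.12±0.0579 s.e., adjusted *P*=0.653). Without that pool its log2 fold change was −0.074 (adjusted *P*=0.811). *Tspan32*, a tetraspanin gene, had 3.50 CPM in WT and a log2 fold change of 0.37±0.175, and *Phlda2*, which restrains placental growth, had 1.58 CPM and 0.26±0.267 (0.044 to 0.44 when a pool was left out). Both rest on few reads.

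*Mest*, paternally expressed on chromosome 6, had the widest spread between WT pools on the log2 scale among the 12 highest genes. It measured 804, 2045 and 960.3 CPM in the WT pools and 701, 1021, 783 and 928 CPM in the *Gata6 STOP/+* pools. WT replicate 4 stood far above any other pool, and the other 6 overlapped (means 1270.0±676 and 858±143 CPM, log2 fold change −0.46±0.262 s.e., adjusted *P*=0.711). Without that pool the log2 fold change was −0.050 (adjusted *P*=0.942), and without WT replicate 3 it was −0.72 (adjusted *P*=0.651). *Copg2*, a coatomer subunit gene whose 3′ end overlaps that of *Mest* on the opposite strand, had a log2 fold change of −0.16±0.0877 and was also highest in WT replicate 4, at 79.4 CPM, without which it had −0.10 (adjusted *P*=0.783). *Nppa*, a natriuretic peptide gene of cardiomyocytes, was likewise far higher in WT replicate 4, with 32.1, 174 and 18.3 CPM in the WT pools and 3.26, 28.3, 6.63 and 11.8 CPM in the *Gata6 STOP/+* pools. The summed cardiomyocyte markers were not highest in that pool, at 23142 CPM beside 23908 in WT replicate 3 and 24654 in *Gata6 STOP/+* replicate 3. The part of cell composition in these values was not tested.

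The *Peg10* domain on chromosome 6 has 4 members, all with small positive log2 fold changes, of which those of *Peg10* and *Asb4* turned negative without *Gata6 STOP/+* replicate 1. *Peg10* measured 404, 387 and 375 CPM in the WT pools and 472, 376, 391 and 378 CPM in the *Gata6 STOP/+* pools. *Gata6 STOP/+* replicate 1 was highest, and the other pools overlapped (means 389±14.8 and 404±45.7 CPM, log2 fold change 0.051±0.0836 s.e., adjusted *P*=0.906). Without it the log2 fold change was −0.025 (adjusted *P*=0.958). *Asb4*, an ankyrin repeat gene of the vasculature, showed the same, with 234 CPM in *Gata6 STOP/+* replicate 1 and 165 to 181 CPM in the other 6 pools, and its log2 fold change was 0.036±0.109 with that pool and −0.084 (adjusted *P*=0.803) without it. *Ppp1r9a*, which encodes the actin-binding protein neurabin, measured 72.7, 77.3 and 70.4 CPM in the WT pools and 86.7, 78.4, 87.3 and 78.6 CPM in the *Gata6 STOP/+* pools. The groups did not overlap, and *Gata6 STOP/+* replicates 1 and 4 were highest (means 73.5±3.49 and 82.7±4.90 CPM, log2 fold change 0.17±0.0652 s.e., adjusted *P*=0.534). Without WT replicate 3 its log2 fold change was 0.16 (adjusted *P*=0.795). *Sgce*, for ε-sarcoglycan of the membrane complex of muscle, had 0.042±0.0653.

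Among members that were the only ones of their domain on the list of names, *Zdbf2* and *Nnat* had higher values in *Gata6 STOP/+*. *Zdbf2*, a paternally expressed zinc-finger gene, measured 37.8, 41.5 and 42.2 CPM in the WT pools and 55.0, 46.5, 42.6 and 51.8 CPM in the *Gata6 STOP/+* pools. All *Gata6 STOP/+* pools were above all WT pools, *Gata6 STOP/+* replicate 4 by little and replicate 1 by most (means 40.5±2.38 and 49.0±5.498 CPM, log2 fold change 0.27±0.0901 s.e., adjusted *P*=0.466). *Nnat*, which encodes a proteolipid of the endoplasmic reticulum, measured 152, 145 and 171 CPM in the WT pools and 215, 158, 191 and 169.7 CPM in the *Gata6 STOP/+* pools. *Gata6 STOP/+* replicates 3 and 5 lay below WT replicate 5, so the groups overlap (means 156±13.4 and 183±25.0 CPM, log2 fold change 0.22±0.101 s.e., adjusted *P*=0.612), and without *Gata6 STOP/+* replicate 1 the log2 fold change was 0.14 (adjusted *P*=0.752). *Plagl1*, a regulator of growth and of other imprinted genes, measured 351, 579 and 455 CPM in the WT pools and 467, 456, 404 and 438 CPM in the *Gata6 STOP/+* pools, with WT replicates 3 and 4 at the extremes (means 462±114 and 441±27.4 CPM, log2 fold change −0.038±0.135 s.e., adjusted *P*=0.962). Without WT replicate 4 its log2 fold change was 0.14 (adjusted *P*=0.719). *Impact*, a regulator of translation under amino acid shortage, had 0.057±0.0674.

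*Gnas* measured 1847, 1622 and 1790.0 CPM in the WT pools and 1644, 1672, 1681 and 1569 CPM in the *Gata6 STOP/+* pools. Its groups overlapped, with *Gata6 STOP/+* replicate 5 lowest (means 1753±117 and 1642±50.8 CPM, log2 fold change −0.093±0.0802 s.e., adjusted *P*=0.809, −0.15 to −0.054 when a pool was left out). *Gm20721*, annotated on the opposite strand over 1469 exonic bases of *Gnas*, had 69.5, 56.8 and 90.3 CPM in the WT pools and 35.7, 41.6, 40.8 and 46.7 CPM in the *Gata6 STOP/+* pools. Its *Gata6 STOP/+* pools were all below its WT pools (means 72.2±16.9 and 41.2±4.47 CPM, log2 fold change −0.78±0.137 s.e., adjusted *P*=0.172). Its adjusted *P* was 4.75e-05 with edgeR's likelihood ratio test, 1.92e-05 with DESeq2, 0.0466 with limma without WT replicate 4, and 1.40e-07 to 0.473 over all alternatives. *H13*, a signal peptide peptidase gene, had a log2 fold change of 0.054±0.0798. *Mcts2*, a retrogene in an *H13* intron whose reads may be shared with its parent *Mcts1*, had −0.18±0.131 (−0.28 to −0.054 when a pool was left out). *Trappc9*, of a vesicle tethering complex, had −0.021±0.106 (−0.14 to 0.048 when a pool was left out), and *Peg13*, the non-coding RNA within it, had −0.18±0.0906.

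The *Snrpn-Ube3a* domain, which corresponds to the region lost in Prader-Willi and Angelman syndromes, had 6 listed members. *Ndn*, a MAGE family gene, was the highest of them per kilobase, at 39.9±2.19 CPM per kilobase in WT, and its log2 fold change was −0.044±0.0585. *Snrpn*, which encodes a spliceosomal protein, had −0.012±0.0858 (−0.089 to 0.047 when a pool was left out). *Snurf*, annotated wholly within *Snrpn* exons, had 3.62 CPM in WT and −0.49±0.225 (−0.76 to −0.30 when a pool was left out), and reads of the 2 genes cannot be told apart with certainty. *Ube3a*, a ubiquitin ligase silenced on the paternal allele only in neurons, had 0.18±0.0976 and was lowest in WT replicate 3, at 109.8 CPM. Its log2 fold change was 0.061 (adjusted *P*=0.972) without WT replicate 3 and 0.27 (adjusted *P*=0.456) without WT replicate 4. *Magel2* and *Peg12* had −0.052±0.154 (−0.13 to 0.013 when a pool was left out) and 0.094±0.0749.

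A further 65 genes reported as imprinted in some tissue, many of them only in placenta, formed a separate list, and 45 were analysed here. With limma, as with edgeR and DESeq2, 0 passed the adjusted threshold, 3 were higher and 3 lower at an unadjusted *P* under 0.05 (4.17% and 3.88% of all genes), and their median log2 fold change was −0.0043. *Th*, for tyrosine hydroxylase, was higher, with 1.29, 1.14 and 1.51 CPM in the WT pools and 2.28, 2.43, 2.24 and 2.36 CPM in the *Gata6 STOP/+* pools. Its groups did not overlap, at few reads (means 1.32±0.188 and 2.32±0.0838 CPM, log2 fold change 0.64±0.161 s.e., adjusted *P*=0.285). *Ano1*, a chloride channel gene, had 0.36±0.0984 (adjusted *P*=0.351), and *Atp10a*, a phospholipid flippase gene, had 0.30±0.112 (adjusted *P*=0.525). *Ddc*, for DOPA decarboxylase, which has a paternally expressed transcript in the heart, measured 26.1, 34.0 and 25.2 CPM in the WT pools and 15.3, 26.6, 16.3 and 24.1 CPM in the *Gata6 STOP/+* pools. *Gata6 STOP/+* replicates 1 and 4 were lowest and the groups overlap (means 28.5±4.85 and 20.6±5.66 CPM, log2 fold change −0.49±0.188 s.e., adjusted *P*=0.541). *Dact2* and *Tssc4* had −0.37±0.139 (adjusted *P*=0.525) and −0.16±0.0707 (adjusted *P*=0.611).

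Of 21 factors that act on imprints or on DNA methylation, 18 were analysed. Of these, 14 had a positive log2 fold change and 0 passed the adjusted threshold with limma, edgeR or DESeq2. Of all genes 49.8% had a positive log2 fold change. At an unadjusted *P* under 0.05, 2 factors were higher and 0 lower, beside 4.17% and 3.88% of all genes. In 5 every *Gata6 STOP/+* pool exceeded every WT pool, beside 4.31% of all genes. The 18 factors included *Tet1*, *Tet2* and *Tet3*, the enzymes that oxidise 5-methylcytosine. Among these, values are given for *Tet1* only, so nothing is said here of the family as a set. *Tet1* measured 27.7, 26.7 and 26.7 CPM in the WT pools and 30.9, 30.7, 33.0 and 31.0 CPM in the *Gata6 STOP/+* pools. The *Gata6 STOP/+* pools lay close together above the WT pools (means 27.0±0.561 and 31.4±1.09 CPM, log2 fold change 0.21±0.0655 s.e., adjusted *P*=0.419). *Arid4a*, a chromatin factor needed at the *Snrpn* imprint, had 0.17±0.0648 (adjusted *P*=0.534), and *Ctcf*, the insulator protein that binds between *H19* and *Igf2*, had 0.092±0.0548. The zinc-finger genes *Zfp57* and *Zfp445*, whose proteins guard methylated imprints, had log2 fold changes of −0.055 and 0.019, their partner *Trim28* had −0.062 and the maintenance methyltransferase gene *Dnmt1* had 0.0060.

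Markers of cell types also differed between pools, here given as log2 fold changes and summed CPM. Of the 56 markers in the 8 lists of muscle, vessel, mesenchyme, neural, epithelial, epicardial and macrophage genes, 7 were lower (*Pdgfra*, *Postn*, *Nppa*, *Tnni1*, *Smtn*, *Tubb3* and *Msln*) and 2 higher (*Erg* and *Stmn2*) at an unadjusted limma *P* under 0.05, beside 3.88% and 4.17% of all genes. Red cell markers are not in this tally, and only *Hbb-y* is given for them below. With limma 0 of the markers named here passed the adjusted threshold, and with DESeq2 *Pdgfra* did (adjusted *P*=0.0408, and 0.00301 to 0.689 over all alternatives). Of the mesenchyme markers, 8 of 10 were lower in *Gata6 STOP/+*, with *Pdgfra* at −0.50 and *Postn* at −0.47. Of the cardiomyocyte markers 7 of 10 were lower, with *Nppa* at −2.27, or −1.33 (adjusted *P*=0.579) without WT replicate 4, and *Tnni1* at −0.26. Of the smooth muscle markers 5 of 6 were higher, led in CPM by *Acta2*, and their sum was 3046, 2675 and 2579.8 CPM in the WT pools and 2687, 3373, 3547 and 2809.9 CPM in the *Gata6 STOP/+* pools, while *Smtn* was lower at −0.15 and was the only one of the 6 whose groups did not overlap. The 8 endothelial markers, led by *Cdh5*, summed to 731, 918 and 630.2 CPM in the WT pools and 817, 709, 878 and 761 CPM in the *Gata6 STOP/+* pools, and 6 of 8 had a positive log2 fold change, from −0.55 (*Emcn*) to 0.24 (*Erg*). Neural markers, 7 of 8 analysed and led by *Tubb3*, summed to 78.8, 53.7 and 72.7 CPM in the WT pools and 61.7, 61.8, 72.3 and 62.9 CPM in the *Gata6 STOP/+* pools, and 5 of 7 had a positive log2 fold change, from −0.39 (*Tubb3*) to 0.40 (*Stmn2*). WT replicate 3, the pool apart for the *Dlk1-Meg3* domain, had the highest neural sum, which rested on *Tubb3*. This gene measured 46.2, 26.2 and 40.0 CPM in the WT pools and 23.7, 27.6, 32.8 and 27.4 CPM in the *Gata6 STOP/+* pools. With *Tubb3* left out of the sum, WT replicate 3 was no longer highest. The groups then did not overlap, with *Gata6 STOP/+* higher. WT replicate 4, the pool apart for *Mest*, had the highest endothelial and the lowest neural sum.

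*Hbb-y*, an embryonic globin gene of red cells, varied widely between pools, with 1089, 988 and 2348 CPM in the WT pools and 1137, 1665, 1761 and 3102 CPM in the *Gata6 STOP/+* pools. It was highest in *Gata6 STOP/+* replicate 5 and WT replicate 5, and the groups overlap (means 1475±758 and 1916±837 CPM, log2 fold change 0.40±0.337 s.e., adjusted *P*=0.805). Epicardial markers (6 of 6, led by *Upk3b*) summed to 343, 359 and 406 CPM in the WT pools and 346, 414, 305 and 429.6 CPM in the *Gata6 STOP/+* pools, and 4 of 6 had a positive log2 fold change, from −0.60 (*Msln*) to 0.27 (*Upk1b*), with a median of 0.028. Macrophage markers (7 of 7, led by *Csf1r*) summed to 52.5, 59.5 and 72.1 CPM in the WT pools and 57.4, 96.0, 44.7 and 40.6 CPM in the *Gata6 STOP/+* pools. For foregut epithelium 2 of 8 markers were analysed, led by *Krt8*, with sums of 110.0, 69.9 and 95.3 CPM in the WT pools and 83.5, 117, 105 and 87.9 CPM in the *Gata6 STOP/+* pools. Of the 8 trophoblast and 5 skeletal muscle precursor markers 0 were analysed here. The part of any of these cell types in the differences of imprinted genes was not tested.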

How the data were processed

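The authors deposited TMM-normalised CPM for 14732 genes in 7 pools, from RSEM counts of 60-base reads of directional libraries on GRCm38, after a filter of 1 CPM in 3 samples. The methods speak of 3 pools per genotype, and the labels give 3 WT and 4 *Gata6 STOP/+* pools, all used here, by their titles. Log2(CPM+0.5) was tested over all genes with limma 3.58.1 (R 4.3.3, trended empirical Bayes, two-sided, Benjamini-Hochberg, threshold 0.05), and pair ratios with exact permutation tests. The constant understates differences of genes with few reads. Whole reads were recovered from the CPM for 100% of values (within 0.01) and tested with edgeR 4.0.16 and DESeq2 1.42.0 as alternatives. Further alternatives were constants of 0.1 and 2, a mean of at least 5 CPM, median-of-ratios scaling, a replicate block and leaving out each pool. Lengths are unions of GENCODE M21 exons. All listed members are named. Those given in full are the 12 highest per kilobase, those with an unadjusted *P* under 0.05 or groups that do not overlap, and both genes of each pair. From other lists, up to 6 genes with an unadjusted *P* under 0.05 are named. *Usp29*, *Mirg*, *Snhg14*, the overlapping genes, neighbours and further list genes were chosen after their values were seen. The members and lists were chosen with earlier results of these data known. Since the litters behind each pool are not given in the sources used here, *P*-values refer to the spread between pools, not litters. Those of limma also draw on the trend of that spread over all genes.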

Additional observations from a re-analysis of the deposited data

Results flagged for a closer look

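In 4 of the 38 members, 1 of the 4 *Gata6 STOP/+* pools lay far from the other 3 (a gap to the nearest pool above the 95% critical value of Dixon's ratio). *Asb4* had 234 CPM in replicate 1, and the nearest pool had 171 CPM. *Peg10*, its neighbour in the same domain, had 472 CPM in replicate 1, against 391 CPM in the nearest pool. *Igf2r* had 2393 CPM in replicate 3, the lowest, with 2851 CPM in the next. *Usp29* had 36.8 CPM in replicate 3, the lowest, with 38.1 CPM in the next, a small gap in CPM. Chance flags about 1 in 20 such groups. WT groups of 3 pools were not tested in this way, so the WT values of *Mest* and *Dlk1* described above are not among these.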

How the results depend on the processing

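Of the 38 members, 28 kept the sign of their log2 fold change under every alternative run, and 10 did not. Genes past the threshold numbered 0 with limma (615 higher and 572 lower at an unadjusted *P* under 0.05), 1 with a constant of 0.1, 105 with edgeR's likelihood ratio test and 88 with DESeq2, and 0 to 13 when a pool was left out, the most without WT replicate 4. Imprinted genes past it numbered 1, *Zim1*, with the likelihood ratio test and with DESeq2, and 0 under every other alternative without the block, each left-out pool included. The cause was not tested. The median log2 fold change of the members lay between 0.027 and 0.075 when a pool was left out, that of maternally expressed members between 0.056 and 0.18, and that of paternally expressed members between −0.0053 and 0.043. With genes of at least 5 CPM the paternal median was 0.047 and the maternal median 0.073, over fewer genes. Leaving out a pool gave log2 fold changes of −0.033 to 0.051 for *H19*, −0.072 to 0.079 for *Igf2*, −0.16 to 0.057 for *Cdkn1c*, −0.22 to 0.14 for *Plagl1*, −0.025 to 0.083 for *Peg10*, −0.084 to 0.084 for *Asb4*, −0.35 to 0.034 for *Dlk1*, −0.089 to 0.047 for *Snrpn*, −0.14 to 0.048 for *Trappc9* and −0.13 to 0.013 for *Magel2*. The other members had −0.72 to −0.050 for *Mest*, 0.0099 to 0.16 for *Igf2r*, 0.043 to 0.069 for *Grb10*, −0.15 to −0.054 for *Gnas*, −0.14 to −0.074 for *Cd81*, 0.14 to 0.29 for *Nnat*, 0.15 to 0.23 for *Peg3*, −0.087 to −0.0086 for *Ndn*, 0.24 to 0.47 for *Meg3*, 0.18 to 0.58 for *Rian*, 0.34 to 0.37 for *Zim1*, −0.76 to −0.30 for *Snurf*, −0.22 to −0.10 for *Copg2*, 0.0034 to 0.10 for *H13*, −0.28 to −0.054 for *Mcts2*, 0.015 to 0.081 for *Impact*, 0.035 to 0.13 for *Airn*, 0.074 to 0.11 for *Peg12*, 0.061 to 0.27 for *Ube3a*, 0.14 to 0.21 for *Ppp1r9a*, 0.012 to 0.077 for *Sgce*, −0.24 to −0.11 for *Peg13*, 0.21 to 0.33 for *Zdbf2*, 0.10 to 0.50 for *Mirg*, 0.033 to 0.14 for *Usp29*, 0.044 to 0.44 for *Phlda2*, 0.027 to 0.23 for *Kcnq1ot1* and 0.25 to 0.48 for *Tspan32*. Differences in the log2 ratio were −0.040 to 0.073 for *H19* to *Igf2*, −0.058 to 0.072 for *Igf2r* to *Airn*, 0.21 to 0.80 for *Meg3* to *Dlk1* and −0.20 to −0.16 for *Cdkn1c* to *Kcnq1ot1*. Replicate numbers 3, 4 and 5 are shared by both genotypes, but pools of the same number did not deviate together (correlations −0.046, −0.266 and −0.017). No pool correlated best with its own number. The deviations are from means of few pools, so these correlations cannot show whether pools were paired. With a replicate block, in which *Gata6 STOP/+* replicate 1 has no partner and adds nothing to the difference, 14 genes passed with limma, 13 with the quasi-likelihood test and 118 with the likelihood ratio test, the last with 1 imprinted gene, *Zim1* (adjusted *P*=0.0190 there, and 1.19e-06 to 0.320 over all alternatives). *Gata6* had a log2 fold change of −0.42 and passed with the paired likelihood ratio test (adjusted *P*=0.0164, and 0.0164 to 0.730 over all alternatives). Without the block the likelihood ratio test gave −0.34 (adjusted *P*=0.154). The study, which also used edgeR, reported −0.42 for *Gata6*, past its adjusted threshold. Whether the study paired its pools is not given in the sources used here. *Gm20721* passed with all 3 paired fits (adjusted *P*=0.0425 with limma, 0.0478 with quasi-likelihood and 1.40e-07 with the likelihood ratio, and 1.40e-07 to 0.473 over all alternatives), and *Gm49394* with the likelihood ratio (adjusted *P*=0.00805, and 0.00103 to 0.549 over all alternatives). In these paired fits the paternal median was −0.0053, and *H19* had −0.019, *Igf2* −0.032 with limma and −0.031 with both edgeR tests, *Peg10* −0.025, *Asb4* −0.084 and *Snrpn* 0.033 with limma and 0.032 with both edgeR tests on the log2 scale. The paired *Igf2r* to *Airn* difference was −0.058. Of the 12 highest genes per kilobase, the list kept 11 of the same genes with the longest transcript as length, but their order and levels changed. By that length *Rian* ranked 12 and *Peg10* 13, and *Gnas* had 444 instead of 157 CPM per kilobase. *Snurf*, *Tspan32*, *Magel2* and *Phlda2* had few reads in WT.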

Other observations

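The 3 annotated genes that overlap *Igf2*, *Cdkn1c* and *Gnas*, namely *Gm49394*, *Gm44732* and *Gm20721*, had all their *Gata6 STOP/+* values below their lowest WT value, with log2 fold changes of −0.94, −0.56 and −0.78, while the imprinted genes they overlap had 0.0024, −0.082 and −0.093. Of all listed genes that share at least 100 exonic bases with a member, these 3 were picked after their values were seen. Of the 9 such genes that are not members themselves, 3 were lower without overlap, beside 4.16% of all genes, and in the other 6 the groups overlapped. By limma on all 7 pools, without further terms, the adjusted *P* of the 3 picked genes was 0.186, 0.294 and 0.172, none past the threshold. Without WT replicate 4 *Gm20721* passed it with limma (adjusted *P*=0.0466, and 1.40e-07 to 0.473 over all alternatives), and *Gm49394* and *Gm20721* passed it with edgeR's likelihood ratio test and all 3 with DESeq2. *Snhg14*, the long non-coding RNA antisense to *Ube3a*, measured 16.8, 19.9 and 16.8 CPM in the WT pools and 17.8, 19.5, 18.5 and 18.7 CPM in the *Gata6 STOP/+* pools and overlapped between groups.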
